A study of Mus musculus with 10 samples.

Results

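The genes described here carry out the cutting, transport and loading of peptides for MHC class I, together with the transactivator of that pathway. They are B2m, Tap1, Tap2, Tapbp, Psmb8, Psmb9, Psmb10, Psme1, Psme2 and Nlrc5, a list of 10 genes taken by symbol. A gene was measured where the array had a probe set that the platform annotation gives that 1 symbol, and 9 of the 10 were measured, of 13666 genes tested in all. The probe set of Psme2 carries the symbols of Psme2 and Psme2b together, and Psme2 is not reported here. The 9 genes had 15 probe sets, and the one brightest on average across the 10 arrays stands for each gene.

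The samples were terminal ileum of male C57BL/6JJmsSlc mice, 7 weeks of age and fed the purified AIN-93G diet, with 1 array per mouse. The 5 control mice were unstressed. The 5 stressed mice had gone through subchronic and mild social defeat, in which each met a larger, aggressive male of the ICR stock. Contact lasted 5 min from the first attack bite on day 1 and was cut by 0.5 min per day to 0.5 min on day 10, and tissue was taken after a fast of 3 h. Levels are log2 values from RMA (robust multi-array average), on which a difference of 1 is a doubling. They are compared between mice for each gene, and not between genes.

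Nucleated cells show fragments of their own proteins on MHC class I, which cytotoxic T cells read. Proteasomes cut the proteins, and under interferon gamma their constitutive catalytic subunits are replaced by the inducible subunits encoded by Psmb8, Psmb9 and Psmb10, while the PA28 cap made of Psme1 and Psme2 opens the barrel. The transporter made of Tap1 and Tap2 carries peptides into the endoplasmic reticulum, where tapasin (Tapbp) holds it to class I heavy chains paired with beta-2 microglobulin (B2m). Nlrc5 is the transactivator that drives many of these genes, and in the intestine both epithelium and lymphoid cells use the pathway.

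The array of control mouse 1 stood apart. Across genes it correlated with the other arrays at 0.918 to 0.947, whereas the other 9 correlated with one another at 0.975 to 0.995. Fabp6, the ileal bile acid binding protein, was at 7.88 in control mouse 1 and at 13.88 to 14.10 in the other 9 mice. Car1, a carbonic anhydrase typical of the large intestine, was at 14.17 in control mouse 1 and 13.32 in stressed mouse 4, against 4.95 to 7.41 in the other 8 mice. The main results are therefore given both with all 10 arrays and without control mouse 1.

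All 9 measured genes had a lower mean in stressed than in control mice, with and without control mouse 1, and none passed the threshold over all genes tested. The largest differences were those of Psmb8, Psmb9 and Tap1, which were higher in controls by 1.91, 1.68 and 1.61 times when control mouse 1 was left out. The place of Tap1 rests on its brightest probe set: with the mean of its probe sets above the floor its difference was -0.26 with 10 arrays and -0.36 without control mouse 1, behind Psmb10 at -0.28 in the first and Nlrc5 at -0.42 in the second. Over all genes, the difference was below 0 in 49.1% with 10 arrays and 43.8% without control mouse 1. The median difference of the 9 genes was -0.25 with 10 arrays and -0.32 without control mouse 1, against 0.0031 and 0.025 over all genes. In whole tissue, fewer cells of a type and less RNA per cell cannot be told apart.

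In limma with Benjamini-Hochberg adjustment over 13666 genes, 0 of the 9 genes had an adjusted p under 0.05 with either set of arrays, where 0% and 0.798% of all genes were called (without control mouse 1, 0.534% of all genes were called lower in stressed mice). At an unadjusted p under 0.05 and a lower level in stressed mice were 5 of the 9 with 10 arrays, against 3.96% of all genes. Without control mouse 1 there were 7 of the 9, against 6.56% of all genes. At an adjusted p under 0.1 were 0 of the 9 with 10 arrays (0.0146% of all genes) and 3 of the 9 without control mouse 1 (1.68%), namely Psmb8, Psmb9 and Tap1. The stressed values all lay below the control values for 1 of the 9 with 10 arrays (1.12% of all genes), Psmb8, and for 3 without control mouse 1 (2.72%), Psmb8, Psmb9 and Tap1.

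**Figure D1:**
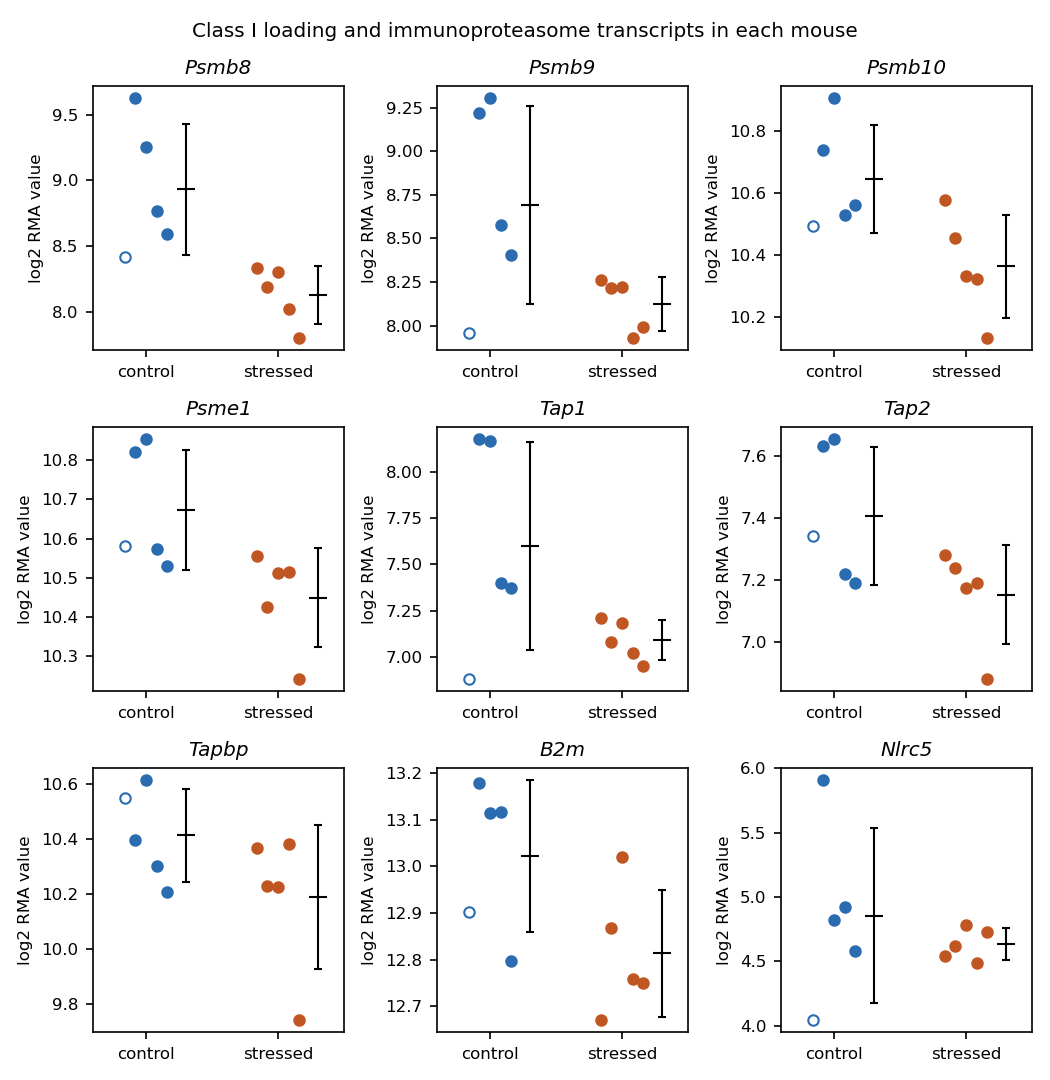
Log2 RMA values of the 9 measured genes in each of 5 control mice (blue, control mouse 1 open) and 5 stressed mice (orange), with mice 1 to 5 from left to right and the mean ± SD of all 5 beside them in black. Control mice 2 and 3 sit highest in most panels, and control mouse 1 lies below every stressed mouse for Tap1 and Nlrc5; the vertical scale differs between panels.

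Psmb8, which encodes the inducible chymotrypsin-like subunit, was at 8.41, 9.63, 9.25, 8.76 and 8.59 in control mice 1 to 5. In stressed mice 1 to 5 it was at 8.33, 8.19, 8.30, 8.02 and 7.80. The lowest control, mouse 1, lay just above the highest stressed mouse, and control mice 2 and 3 were the highest. Controls averaged 8.93 ± 0.50 (SD, n = 5) and stressed mice 8.13 ± 0.22 (SD, n = 5), and the difference was -0.80 ± 0.21 (SE, limma adjusted p = 0.370). Without control mouse 1 it was -0.93 ± 0.19 (SE), with a limma adjusted p of 0.0517 just outside the threshold. In that comparison the limma adjusted p ranged from 0.0259 to 0.138 over the other settings without a replicate block, and Psmb8 passed with the mean of all probe sets, array centring, renewed quantile normalization, a variance trend together with robust fitting, and without control mouse 5.

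Psmb9, the inducible counterpart of Psmb6, was at 7.96, 9.22, 9.30, 8.58 and 8.40 in control mice 1 to 5. The 5 stressed mice, in the same order, were at 8.26, 8.21, 8.22, 7.93 and 7.99. Control mouse 1 lay inside the stressed range, and the other 4 controls lay above every stressed mouse. The difference was -0.57 ± 0.23 (SE, limma adjusted p = 0.592) with 10 arrays and -0.75 ± 0.18 (SE, limma adjusted p = 0.0669) without control mouse 1.

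Tap1, a chain of the peptide transporter, was at 6.88, 8.18, 8.17, 7.40 and 7.37 in control mice 1 to 5. In stressed mice 1 to 5 it was at 7.21, 7.08, 7.18, 7.02 and 6.95. Control mouse 1 was the lowest of all 10 mice, and the other 4 controls lay above every stressed mouse. The difference was -0.51 ± 0.22 (SE, limma adjusted p = 0.620) with 10 arrays and -0.69 ± 0.17 (SE, limma adjusted p = 0.0814) without control mouse 1.

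Psmb9, Tap1, Psmb8 and Tap2 follow one another in this order in the MHC region of mouse chromosome 17, in the RefSeq gene table for GRCm38.p6. Psmb9 and Tap1 point away from each other with 225 bases between their start sites. The stretch between them is shown because both genes start from it, and those before Psmb8 and B2m because they hold matches to the interferon-type motifs searched. The sequences are RefSeq's for GRCm38.p6, on the + strand at chr17:34187331-34187555, chr17:34197945-34198194 and chr2:122147437-122147686, and end at the base before the start site (of Tap1 in the shared stretch). Capitals mark matches, on either strand, to the core of the interferon-stimulated response element (GAAA repeated after 2 bases of any kind), TTCNNNGAA (the interferon gamma activated site), a kappa B type site (GGG, then 2 bases of any kind, then TTTCC) and CCAAT.
Tap1 and Psmb9: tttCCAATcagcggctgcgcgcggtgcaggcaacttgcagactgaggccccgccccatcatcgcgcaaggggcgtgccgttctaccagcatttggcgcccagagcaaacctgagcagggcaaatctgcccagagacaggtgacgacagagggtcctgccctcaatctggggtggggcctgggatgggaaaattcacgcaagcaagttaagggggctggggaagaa
Psmb8: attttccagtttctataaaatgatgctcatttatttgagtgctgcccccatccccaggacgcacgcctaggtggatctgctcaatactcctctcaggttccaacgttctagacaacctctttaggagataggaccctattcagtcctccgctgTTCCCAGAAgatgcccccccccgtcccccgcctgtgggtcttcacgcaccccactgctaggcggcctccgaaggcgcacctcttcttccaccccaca
B2m: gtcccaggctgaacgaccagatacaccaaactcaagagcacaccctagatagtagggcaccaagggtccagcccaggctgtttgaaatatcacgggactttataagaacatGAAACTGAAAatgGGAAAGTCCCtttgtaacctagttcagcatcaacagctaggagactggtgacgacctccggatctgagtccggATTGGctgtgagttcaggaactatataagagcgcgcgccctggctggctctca

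The shared stretch held 1 match, to CCAAT near the Psmb9 start. The Psmb8 stretch held 1 match, to TTCNNNGAA. The B2m stretch held the interferon-stimulated core, the kappa B type site and CCAAT, none of them overlapping. The promoter table covered 8 of the 10 genes (not Tap2 and Nlrc5), in 9 windows of 250 bases before to 50 bases after a start. The interferon-stimulated core was in 2 of these 9 windows (B2m and, after the start, Psme1) and in 3.44% of all 32851 windows, TTCNNNGAA in 1 (Psmb8) and 8.30%, the kappa B type site in 1 (B2m) and 1.63%, and CCAAT in 4 (B2m, Psmb9, Tap1 and Tapbp) and 37.4%. The Psmb9 and Tap1 windows overlap, and their CCAAT is the same match in the shared stretch, counted once for each gene. These matches are descriptions of the letters alone.

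Psmb10, the inducible trypsin-like subunit, was at 10.49, 10.74, 10.90, 10.53 and 10.56 in control mice 1 to 5. Its values in the stressed mice were 10.58, 10.45, 10.33, 10.32 and 10.13. Stressed mouse 1 lay above 3 of the controls, so the groups overlapped. The difference was -0.28 ± 0.11 (SE, limma adjusted p = 0.557) with 10 arrays and -0.32 ± 0.11 (SE, limma adjusted p = 0.158) without control mouse 1.

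Psme1, the alpha subunit of the PA28 cap, was at 10.58, 10.82, 10.85, 10.57 and 10.53 in control mice 1 to 5. The stressed mice were at 10.56, 10.42, 10.51, 10.51 and 10.24. Stressed mouse 1 lay above control mouse 5, and stressed mouse 5 was the lowest of all mice. The difference was -0.22 ± 0.09 (SE, limma adjusted p = 0.606) with 10 arrays and -0.25 ± 0.10 (SE, limma adjusted p = 0.216) without control mouse 1.

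Tap2, the other chain of the transporter, was at 7.34, 7.63, 7.65, 7.22 and 7.19 in control mice 1 to 5, and at 7.28, 7.24, 7.18, 7.19 and 6.88 in stressed mice 1 to 5. Only control mice 1, 2 and 3 lay above every stressed mouse. Its difference, -0.27 ± 0.12 (SE, limma adjusted p = 0.274) when control mouse 1 was left out and -0.25 ± 0.12 (SE, limma adjusted p = 0.640) with 10 arrays, was smaller than that of its partner Tap1; the difference between the partners was not tested.

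Tapbp, which encodes the tapasin that bridges transporter and heavy chain, was at 10.55, 10.40, 10.61, 10.30 and 10.21 in control mice 1 to 5. In stressed mice 1 to 5 it was at 10.37, 10.23, 10.22, 10.38 and 9.74. Control mice 1, 2 and 3 lay above every stressed mouse, and control mice 4 and 5 lay inside the stressed range. Stressed mouse 5 lay far below every other mouse. The difference was -0.23 ± 0.13 (SE, limma adjusted p = 0.742) with 10 arrays and -0.19 ± 0.13 (SE, limma adjusted p = 0.472) without control mouse 1. Leaving out stressed mouse 5 made it -0.11 with the other 9 arrays and -0.080 without control mouse 1 as well.

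B2m, the light chain of every class I molecule, was at 12.90, 13.18, 13.11, 13.12 and 12.80 in control mice 1 to 5. Stressed mice 1 to 5 were at 12.67, 12.87, 13.02, 12.76 and 12.75. Control mice 1 and 5 lay inside the stressed range, and control mice 2, 3 and 4 above it. The difference was -0.21 ± 0.10 (SE, limma adjusted p = 0.642) with 10 arrays and -0.24 ± 0.10 (SE, limma adjusted p = 0.237) without control mouse 1. Its signal is near the top of the scale, which reached 14.37, and differences there can be compressed.

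Nlrc5, the transactivator, was at 4.04, 5.91, 4.82, 4.92 and 4.58 in control mice 1 to 5. The stressed group was at 4.55, 4.62, 4.79, 4.49 and 4.73. Control mouse 2 was far above all others, control mouse 1 was the lowest of all mice, and the stressed mice lay close together. The difference was -0.22 ± 0.27 (SE, limma adjusted p = 0.872) with 10 arrays and -0.42 ± 0.21 (SE, limma adjusted p = 0.321) without control mouse 1. It turned to 0.041 when control mouse 2 was left out of the 10 arrays, and was -0.14 without control mice 1 and 2. The level is close to the filter floor of 4.15, where differences can be compressed and small ones are uncertain.

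**Figure D2:**
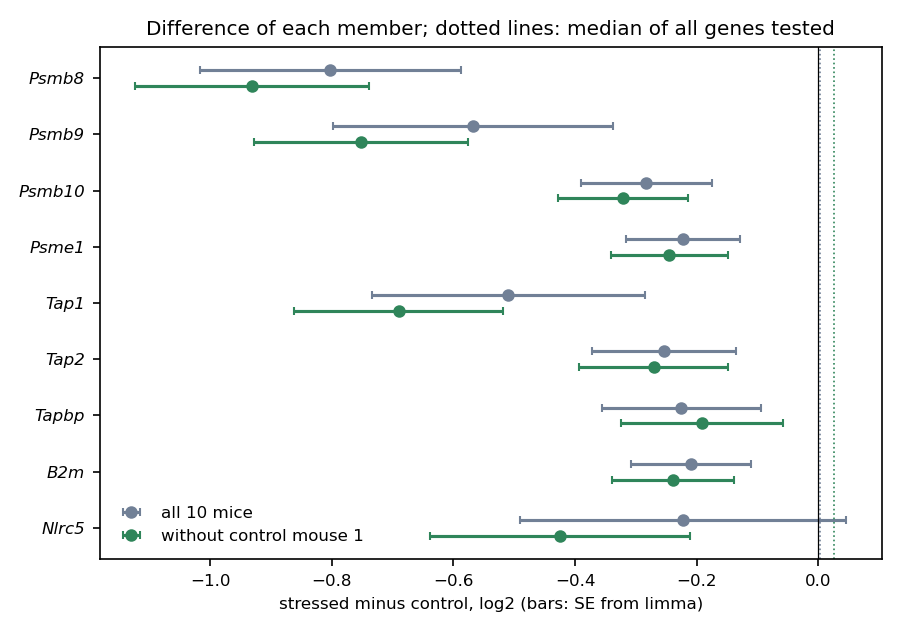
Log2 difference of each gene, as the stressed mean less the control mean, with 10 arrays (grey) and without control mouse 1 (green); bars are standard errors from limma and dotted lines the median of all genes tested. All 9 points of either colour lie left of 0, with Psmb8 farthest at -0.80 and -0.93.

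The other 6 probe sets of these genes were lower in stressed mice too, but 2 of the 3 above the filter floor only slightly. All 15 probe sets, 9 of them used above and 3 below the filter floor, were lower in stressed mice with both sets of arrays. The second probe set of B2m differed by -0.26 with 10 arrays and -0.32 without control mouse 1. The 3 below the floor differed by -0.41, -0.29 and -0.18 with 10 arrays and by -0.53, -0.39 and -0.20 without control mouse 1, the first for Psmb8 and the others for Tap1. A dimmer probe set of Tap1 above the floor differed by -0.01 and -0.03, and one of Tapbp by -0.02 and -0.04, so these 2 genes showed little difference by their other probe sets above the floor.

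Control mouse 3 was highest of all 10 mice for 5 of the 9 genes and control mouse 2 for the other 4, and both lay above every stressed mouse for all 9. Control mouse 4 lay above every stressed mouse for 6 genes, control mouse 1 for 4 and control mouse 5 for 3. Stressed mouse 5 was the lowest of all for 5 genes. The SD was larger among control than stressed mice for 8 of the 9 genes with 10 arrays and for 8 without control mouse 1. The count of 5 genes at an unadjusted p under 0.05 with 10 arrays became 1 without control mouse 2, control mouse 3 or stressed mouse 5, and 3 without stressed mouse 2 or stressed mouse 4. The count of 7 without control mouse 1 became 4 when control mouse 2, control mouse 3 or stressed mouse 5 was left out as well. With control mouse 1 and stressed mouse 4 both left out, all 9 were still lower and 5 had an unadjusted p under 0.05. The count of 3 at an adjusted p under 0.1 became 0 without stressed mouse 4 or control mouse 3, and 1 without control mouse 2, stressed mouse 3 or stressed mouse 5.

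Each inducible catalytic subunit takes the place of 1 constitutive subunit, so their log2 difference within an array was compared between groups. Psmb8 minus Psmb5 averaged -0.80 ± 0.40 (SD, n = 4) in the other 4 controls and -1.68 ± 0.22 (SD, n = 5) in the stressed group, control mouse 1 left out. These values did not overlap, since the controls spanned -1.22 to -0.35 and the stressed mice -1.98 to -1.44. The difference between groups was -0.88 ± 0.22 (SE), with an exact 2-sided permutation p of 0.0159 and 0.0238 adjusted over the 3 pairs. Psmb9 minus Psmb6 was -1.15 ± 0.39 (SD, n = 4) and -1.84 ± 0.16 (SD, n = 5). This pair also did not overlap, at -1.61 to -0.81 against -2.05 to -1.70, and its difference was -0.69 ± 0.21 (SE), with an exact permutation p of 0.0159 and 0.0238 adjusted. That p is the smallest that 126 assignments of 9 arrays can give when the smaller tail is doubled. Psmb8 and Psmb9 by themselves already separated the groups in these 9 arrays, and Psmb5 and Psmb6 differed little. The pair results therefore largely restate that separation and are not separate evidence. Their adjustment covers 3 pairs and not all genes tested, and the genes were chosen with earlier results of these data known. For both pairs the adjusted p became 0.0536 when any 1 of control mice 2, 3, 4 or 5 was left out as well. With the doubled tail, that is the smallest these pairs can reach while the p of the third pair is larger. Without any 1 stressed mouse it was 0.0429.

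With all 10 arrays the same differences were -0.72 ± 0.24 (SE) for Psmb8 minus Psmb5 and -0.53 ± 0.23 (SE) for Psmb9 minus Psmb6. Their exact permutation p was 0.0238 and 0.0556, or 0.0714 and 0.0833 adjusted over the 3 pairs, outside the threshold. Control mouse 1 was at -1.59 and -1.96, inside the stressed range of both pairs. Psmb10 minus Psmb7 differed little, by -0.09 ± 0.13 (SE) without control mouse 1 (exact permutation p = 0.492, also 0.492 adjusted) and by -0.03 ± 0.13 (SE) with 10 arrays (exact permutation p = 0.810, also 0.810 adjusted). The constitutive partners themselves differed without control mouse 1 by -0.05 ± 0.07 (SE) for Psmb5, -0.06 ± 0.07 (SE) for Psmb6 and -0.23 ± 0.14 (SE) for Psmb7, with limma adjusted p of 0.705, 0.666 and 0.421. With 10 arrays they differed by -0.08 ± 0.07 (SE), -0.04 ± 0.07 (SE) and -0.25 ± 0.14 (SE), with limma adjusted p of 0.808, 0.915 and 0.725. Whether the difference of one pair differed from that of another was not tested.

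**Figure D3:**
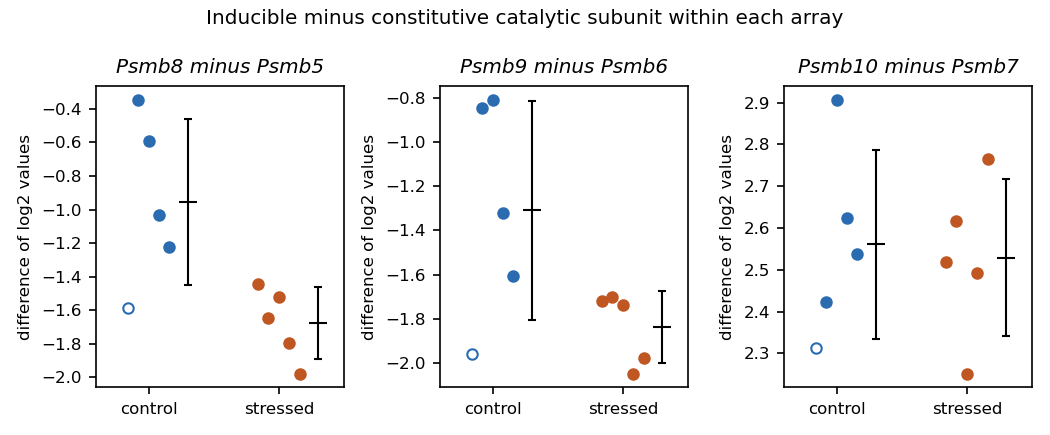
Log2 value of each inducible catalytic subunit minus that of its constitutive counterpart within each array, for 5 control mice (blue, control mouse 1 open) and 5 stressed mice (orange), with mean ± SD of all 5 in black. For Psmb8 minus Psmb5 and Psmb9 minus Psmb6 the 4 filled control points lie above every stressed point, and for Psmb10 minus Psmb7 the groups overlap.

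The rest of the proteasome differed by less than Psmb8 and Psmb9; that contrast was not tested. Of 16 other genes of the 20S core and its assembly, all 16 were lower with either set of arrays, with a median difference of -0.09 with 10 arrays and -0.10 without control mouse 1. At an unadjusted p under 0.05 were 2 of them with 10 arrays and 3 without control mouse 1, all lower. The shares of all genes lower at that threshold were 3.96% and 6.56%. Of the 16, 0 passed over all genes in limma. Psma2, an alpha ring subunit, had a difference of -0.18 ± 0.07 (SE, limma adjusted p = 0.219) when control mouse 1 was left out, and of -0.18 ± 0.07 (SE) with 10 arrays. Psmg1, an assembly chaperone, differed by -0.17 ± 0.06 (SE, limma adjusted p = 0.206) and -0.17 ± 0.06 (SE). Stressed values of Psma2, Psmg1 and Psmb2, another subunit of the core, all lay below those of the controls in both comparisons. So did those of Psmd8 among the caps. Over all genes this held for 1.12% with 10 arrays and 2.72% without control mouse 1. Of 20 genes of the 19S cap and other caps, a lower stressed mean was seen in 11 with 10 arrays and in 15 when control mouse 1 was left out, and 0 had an unadjusted p under 0.05 in either. Psme3, the gamma subunit of a related cap, differed by -0.06 ± 0.07 (SE) without control mouse 1 and by -0.02 ± 0.07 (SE) with 10 arrays.

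The class I heavy chains, which hold the peptide, had smaller differences than Psmb8, a contrast that was not tested. Many of their probe sets carry several symbols, and 7 heavy chain genes of 19 on the list were tested. Lower means were found for 5 of them in either comparison, with a median of -0.08 with 10 arrays and -0.10 without control mouse 1. For H2-D1, a classical heavy chain, controls averaged 12.26 ± 0.14 (SD, n = 5) and stressed mice 12.02 ± 0.13 (SD, n = 5). Its difference was -0.25 ± 0.09 (SE, limma adjusted p = 0.536) with 10 arrays and -0.27 ± 0.09 (SE, limma adjusted p = 0.179) without control mouse 1. H2-K1, the other classical heavy chain tested, differed by -0.23 ± 0.11 (SE, limma adjusted p = 0.641) and -0.19 ± 0.11 (SE, limma adjusted p = 0.368). All 6 probe sets of H2-D1 and all 4 of H2-K1 above the floor were lower with both sets of arrays, but heavy chain sequences are alike and their probe sets may take up one another's transcripts.

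The chaperones and trimming enzymes around the loading complex showed no shared direction. Of 9 tested, the count with a lower stressed mean was 2 with 10 arrays and 4 when control mouse 1 was left out, and 1 had an unadjusted p under 0.05 in either comparison. That gene was Tapbpl, which encodes TAPBPR, a peptide editor related to tapasin. It differed by -0.29 ± 0.09 (SE, limma adjusted p = 0.455) with 10 arrays and -0.26 ± 0.09 (SE, limma adjusted p = 0.185) once control mouse 1 was left out, and its other probe set by -0.08 in the latter. Without control mouse 1, the lectin chaperones Calr and Canx differed by 0.04 ± 0.09 (SE) and 0.10 ± 0.11 (SE), the oxidoreductase Pdia3 by 0.01 ± 0.09 (SE) and the trimming peptidase Erap1 by -0.07 ± 0.09 (SE). With 10 arrays these were 0.16 ± 0.13 (SE), 0.17 ± 0.12 (SE), 0.04 ± 0.09 (SE) and -0.07 ± 0.08 (SE).

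Interferon gamma signalling genes were mixed. Ifng itself was at 1.97 to 2.67 over the 10 arrays, below the filter floor. Lower in stressed mice were 5 of the 10 tested with 10 arrays and 6 when control mouse 1 was left out. At an unadjusted p under 0.05 were 1 lower and 1 higher with 10 arrays, and 3 lower and 1 higher without control mouse 1. Over all genes, 3.86% and 11.4% were higher at that threshold. Irf1, an interferon-induced transcription factor of class I genes, was at 9.66, 9.80, 9.82, 9.67 and 9.81 in control mice 1 to 5, and at 9.22, 9.30, 9.58, 9.51 and 9.73 in stressed mice 1 to 5. Stressed mouse 5 alone reached into the control range. Irf1 differed by -0.28 ± 0.10 (SE, limma adjusted p = 0.511) with 10 arrays and -0.31 ± 0.10 (SE, limma adjusted p = 0.161) without control mouse 1. Jak2, a kinase of the interferon gamma receptor, differed the other way, by 0.30 ± 0.11 (SE, limma adjusted p = 0.511) and 0.23 ± 0.09 (SE, limma adjusted p = 0.225).

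Ciita is the class II relative of Nlrc5 and uses the RFX and NF-Y factors at the same kind of promoter. Control mice averaged 4.80 ± 0.30 (SD, n = 5) and stressed mice 4.68 ± 0.16 (SD, n = 5), a difference of -0.12 ± 0.14 (SE, limma adjusted p = 0.868). Without control mouse 1 the difference was -0.24 ± 0.10 (SE, limma adjusted p = 0.248). Its second probe set above the floor differed by -0.35 with 10 arrays and -0.58 without control mouse 1. Of 8 genes tested for Ciita, RFX, NF-Y and their partners, stressed mice had the lower mean in 2 with 10 arrays and in 1 when control mouse 1 was left out. The 1 at an unadjusted p under 0.05, without control mouse 1, was Ciita.

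**Figure D4:**
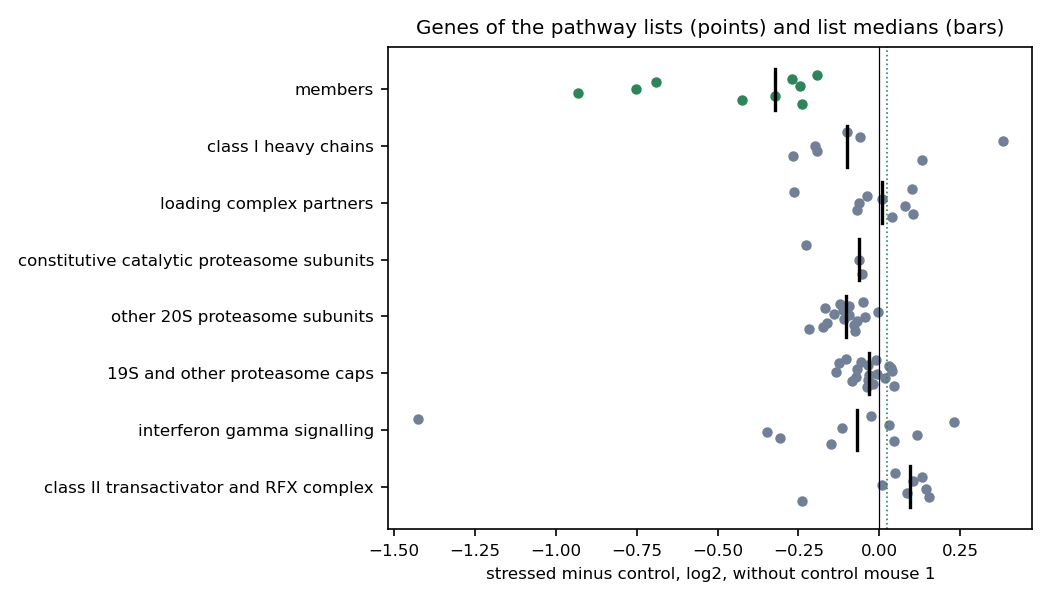
Log2 difference (stressed mean less control mean, control mouse 1 left out) of each gene tested in the lists of the class I pathway; points are genes, black bars list medians and the dotted line the median of all genes. The median is -0.32 for the 9 genes described here and -0.10 for the class I heavy chains and the other 20S subunits; the point at -1.43 is Socs3, an inhibitor of cytokine signalling.

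Socs3, singled out after its value was seen, had a difference of -1.43 ± 0.36 (SE, limma adjusted p = 0.0829) when control mouse 1 was left out and of -0.81 ± 0.62 (SE, limma adjusted p = 0.798) with 10 arrays.

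Markers of immune cells, which carry this pathway at high levels, were lower in stressed mice too. Of 14 T cell and cytotoxic lymphocyte markers tested, 12 had the lower mean there with either set of arrays. At an unadjusted p under 0.05 were 10 of them without control mouse 1 and 8 with 10 arrays. Over all genes, 6.56% and 3.96% were lower at that threshold. Of the 14, Cd7 fell past the threshold over all genes without control mouse 1. In that comparison Cd4 and Prf1 were higher, by 0.06 ± 0.08 (SE) and 0.08 ± 0.08 (SE), and Cd8a differed by -0.04 ± 0.12 (SE). The mean over the T cell list was 5.66 to 6.43 in controls without mouse 1 and 5.52 in control mouse 1, against 5.43 to 5.65 in stressed mice. Control mice 2 and 3, highest for the class I genes, were also highest here, at 6.43 and 6.29. Of 12 macrophage and dendritic cell markers, 10 were lower, and the list mean was 6.99 to 7.21 in controls without mouse 1, 6.81 in control mouse 1 and 6.82 to 6.97 in stressed mice. Of 6 B cell markers above the floor, 6 were lower, at 4.82 to 6.09, 4.57 and 4.59 to 4.86. Pax5, a transcription factor that defines B cells, was not above the floor. The part of these cells in the differences of the class I genes was not tested. Of 7 terminal ileum markers tested without control mouse 1, 5 had a higher mean in stressed mice. At an unadjusted p under 0.05 were 4 of them, all higher, against 11.4% of all genes. Of these, Fgf15, the ileal hormone that signals to the liver, rose by 1.73 ± 0.32 (SE, limma adjusted p = 0.0347) and Cubn, a receptor for vitamin B12 uptake, by 0.70 ± 0.11 (SE, limma adjusted p = 0.0245). With 10 arrays these were 2.41 ± 0.65 (SE, limma adjusted p = 0.373) and 1.35 ± 0.56 (SE, limma adjusted p = 0.600). The ileum list mean was 10.61 to 10.88 in controls without mouse 1, 7.82 in control mouse 1 and 10.89 to 11.36 in stressed mice. Of 12 endothelial and stromal markers, 10 had a higher mean in stressed mice without control mouse 1 and 7 with 10 arrays. At an unadjusted p under 0.05 were 3 and 2 of them, all higher, against 11.4% and 3.86% of all genes, and 0 passed over all genes in limma. The part of these markers in the differences of the class I genes was not tested either. Enterocyte markers had list means of 11.04 to 11.26 in controls without mouse 1, 8.89 in control mouse 1 and 10.99 to 11.72 in stressed mice.

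**Figure D5:**
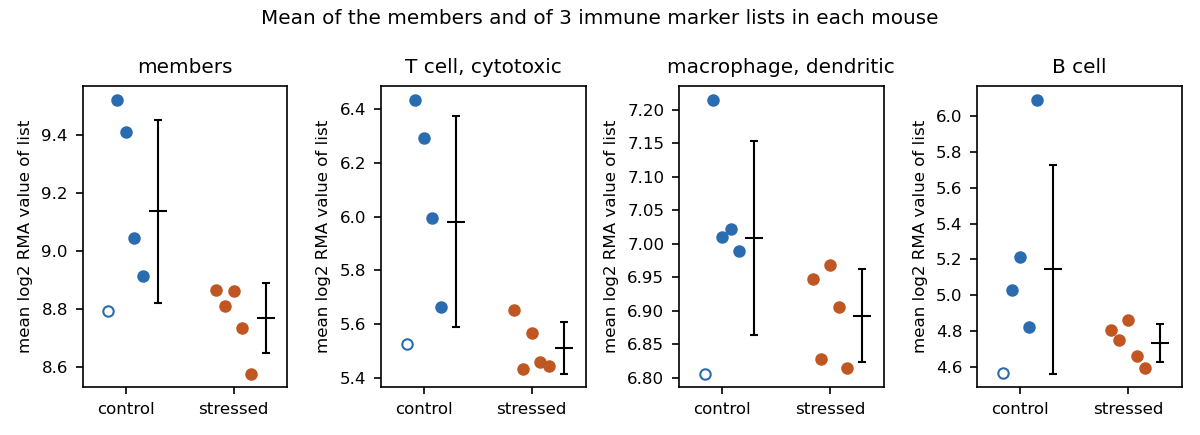
Mean log2 RMA value per mouse over the 9 class I genes and over 3 lists of immune cell markers, for 5 control mice (blue, control mouse 1 open) and 5 stressed mice (orange), with mean ± SD of all 5 in black. For the class I genes, the T cell list and the macrophage list the 4 filled control points lie above every stressed point, while in the B cell list the highest is control mouse 5 at 6.09.

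The genes whose pattern was most like the mean of the 9 genes were sought over the 9 arrays without control mouse 1. They were Ubd, Mydgf, H2-Ab1, H2-Aa and Ccl5, with Pearson correlations of 0.989, 0.985, 0.984, 0.981 and 0.977. The arrays share both group and mouse, and with each group centred on its own mean the correlations were 0.973, 0.962, 0.959, 0.956 and 0.948. The mean of the 9 genes was 8.92 to 9.52 in these controls and 8.58 to 8.87 in stressed mice. Genes picked by likeness to it over the same arrays are lower in stressed mice by that choice. Their differences are descriptions, and their adjusted p values take no account of the choice. Ubd, a ubiquitin-like modifier induced by interferon gamma, averaged 6.63 ± 1.08 (SD, n = 4) in the controls and 4.87 ± 0.39 (SD, n = 5) in the stressed mice, a difference of -1.77 ± 0.40 (SE, limma adjusted p = 0.0636) when control mouse 1 was left out and -1.62 ± 0.41 (SE, limma adjusted p = 0.345) with 10 arrays. Mydgf showed the smallest shift of the 5, from 8.45 ± 0.11 (SD, n = 4) in these controls to 8.26 ± 0.05 (SD, n = 5) under stress. Its limma estimate over these 9 arrays was -0.19 (SE 0.07, adjusted p 0.220). Over all 10 arrays the estimate for Mydgf was -0.14 (SE 0.08, adjusted p 0.760). H2-Ab1 and H2-Aa encode the chains of the class II molecule I-A. They differed by -0.56 ± 0.15 (SE, limma adjusted p = 0.0891) and -0.47 ± 0.14 (SE, limma adjusted p = 0.110) without control mouse 1. With 10 arrays these were -0.46 ± 0.17 (SE, limma adjusted p = 0.520) and -0.42 ± 0.14 (SE, limma adjusted p = 0.463). The lymphocyte chemokine Ccl5 differed by -1.40 ± 0.37 (SE, limma adjusted p = 0.0940) in the smaller set of arrays and -1.18 ± 0.41 (SE, limma adjusted p = 0.496) in the full one. Among the 9 genes themselves the correlation with their mean ran from 0.704 for Tapbp and 0.752 for Nlrc5 to 0.989 for Psmb8, each gene being part of that mean.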

How the data were processed

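The authors deposited 1 table of log2 values for 45101 probe sets on 10 arrays, made with RMA per the submitters' processing notes; software, version and annotation were not stated in what was used here, and base 2 was taken from RMA's usual output and the range of 1.22 to 14.37. RMA forces arrays to 1 distribution, so changes in total RNA cannot be seen. Arrays carry no read depth, and their number limits the precision.

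Of the probe sets, 34945 carried 1 symbol, 932 several and 9160 none, and 64 were controls. The lowest 40 percent by mean over the 10 arrays (floor 4.15) were left out, and each gene took its probe set with the highest mean. Groups and mouse numbers came from the titles. The fit of group means over all genes used limma 3.58.1 (lmFit, eBayes; R 4.3.3), with Benjamini-Hochberg adjustment, threshold 0.05, after a check on simulated data. Subunit pairs were compared by a 2-sided exact permutation test of the difference of means, with the smaller tail doubled (SciPy 1.17.1). The absolute difference of means was tried as another form of that test after its values had been seen, and is given as an alternative only.

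The genes and lists were chosen with earlier results of these data known. Named in the text were all measured genes of the list, pathway genes on a written list, those at an unadjusted p under 0.05 in both comparisons (at most 4 a list), and the 5 most correlated named genes outside the list. Symbols were looked up in RefSeq through 34741 Entrez identifiers, with 0 changed. Alternatives changed the filter, probe set choice, array scaling, variance model, array weights, replicate block and each mouse. The titles' numbers were checked as pairs: deviations of same-numbered mice correlated at -0.30 to 0.28. So few pairs cannot settle whether the mice were paired, and the main fits treated them as unpaired.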

Additional observations from a re-analysis of the deposited data

Results flagged for a closer look

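Of 99 groups of 4 or 5 mice examined over 33 measures, 4 held a mouse far from the rest, where chance alone flags about 1 in 20. Tap2 in stressed mouse 5 was at 6.88, against 7.18 in the next lowest stressed mouse. Tapbp in the same mouse was at 9.74, against 10.22. Calr in control mouse 1 was at 10.88, against 11.41 in the next control. Irf1 in control mouse 4 was at 9.67, against 9.80 in the next lowest control without mouse 1.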

How the results depend on the processing

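With 10 arrays no setting called any of the 9 genes. The count over all genes, 0, became 2 with the mean of all probe sets, with array centring and with renewed quantile normalization, and 41 with array weights, and ranged from 0 to 109 when 1 mouse was left out. Without control mouse 1, the count of the 9 genes called, 0, became 1 with the mean of all probe sets, with renewed quantile normalization and with a variance trend plus robust fitting (Psmb8), and 2 with array centring (Psmb8 and Psmb9). It ranged from 0 to 2 when 1 more mouse was left out, with 2 without control mouse 5. Over all genes the count of 109 became 242 with array centring, 166 with renewed quantile normalization and 169 with a variance trend plus robust fitting, and ranged from 6 to 154 when 1 more mouse was left out.

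With the replicate block, Psmb8 and Psmb9, thus 2 of the 9 genes, were called without control mouse 1, and 95 genes in all. The pairs of this block rest on the titles' numbers alone: 1 of 5 controls and 2 of 5 stressed mice correlated best with the mouse of their own number. Under the replicate block Psmb8 minus Psmb5 changed by -0.94 and Psmb9 minus Psmb6 by -0.72 without control mouse 1, each with an adjusted p of 0.188, since sign flips of 4 pairs cannot pass the threshold.

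Leaving out 1 mouse of 10 gave -0.88 to -0.57 for Psmb8 minus Psmb5, -0.69 to -0.40 for Psmb9 minus Psmb6 and -0.094 to 0.054 for Psmb10 minus Psmb7. The last turned to 0.054 without control mouse 3 and to 0.037 without stressed mouse 3. Leaving out 1 mouse besides control mouse 1 gave -1.02 to -0.73, -0.84 to -0.58 and -0.16 to 5.49e-05. For the first and second pairs the adjusted p was then 0.0429 without any stressed mouse and 0.0536 without any of control mice 2 to 5, where the calls were lost. With the absolute difference of means, a form of the exact test chosen after seeing the data, the values without control mouse 1 had an adjusted p of 0.0119 in place of 0.0238, and the calls lost above were kept, at 0.0268. With 10 arrays that form changed no call.

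The Nlrc5 difference with 10 arrays ranged from -0.42 to 0.041 when 1 mouse was left out, and turned to 0.041 without control mouse 2. Nlrc5 was not tested under the stricter filter, which dropped the dimmest 60 percent. The differences of the other 8 genes stayed below 0 in every setting run, 18 with 10 arrays and 17 without control mouse 1. The cause of these shifts was not tested.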
